A study of Mus musculus with 9 samples.

Results

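Nuclear receptors are a family of 43 genes in the table analysed here, chosen by symbol from its 23224 genes, and their mRNA was followed in cancer cells from mouse lung tumours with or without the chromatin remodeller Smarca4. Hnf4a, Hnf4g and Nr4a1 belong to the same family but were not among the 43, and are given as a separate list. The alleles shared by all groups, on a mixed B6;129S2 background, included Trp53fl/fl and Rosa26LSL-TdTom, so Cre-driven loss of Trp53 and the tdTomato reporter were common to the 3 groups. The KP group was Smarca4+/+ (n = 4), KPS-HET was Smarca4fl/+ (n = 2) and KPS was Smarca4fl/fl (n = 3). Adenoviral Cre was instilled into the trachea, and its CCSP promoter is active in club cells, so recombination was directed to that cell type. Cells were sorted by FACS from dissociated lungs of moribund mice, and no source used here gives the sort gate, the age or whether every library is a different mouse. The p-values therefore measure the spread between these samples, which may be technical.

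Nuclear receptors are transcription factors, many of which are switched by small lipophilic ligands such as steroids, retinoids, thyroid hormone, oxysterols and fatty acids. Many bind DNA as heterodimers with a retinoid X receptor, recruit corepressors without ligand and coactivators with it, and some, such as the REV-ERBs and the NR4A group, act without a classical hormone. In the lung the glucocorticoid receptor is known for its part in epithelial maturation, and PPAR gamma and the liver X receptors for lipid handling in alveolar cells and alveolar macrophages. The BAF complex, whose ATPase Smarca4 encodes, is a known partner of several of them, including the glucocorticoid receptor.

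Library totals ran from 12607500 to 37114400 estimated counts. Levels are TMM-scaled CPM, the count of a gene relative to its library's scaled total. Smarca4 stood at 126 ± 12.0 CPM in KP (SD, n = 4), 86.8 ± 14.7 in KPS-HET (n = 2) and 47.7 ± 7.84 in KPS (n = 3). In KPS the 3 libraries held 55.5, 39.9 and 47.6 CPM, all below the 4 KP libraries at 137, 124, 132 and 110 CPM. Its log2 fold change in KPS against KP was -1.40 ± 0.15 (SE, edgeR quasi-likelihood test, adjusted p = 0.00214). The deposited values do not show which part of the transcript the remaining reads cover. Alveolar type 2 markers were abundant in every library, with a summed level of 65456 to 101710 CPM in KP, 18138 to 52720 in KPS and 48613 to 74175 in KPS-HET. Of 18 macrophage and monocyte markers, 4 were called higher in KPS (Cd14, Marco, Ctss and Chi3l3) and their median log2 fold change was 3.12, while the summed level was 4471 to 10832 CPM in KP, 4872 to 11335 in KPS and 3885 to 9979 in KPS-HET. Up to 3 of the 18 were at 0 in a KP library, up to 4 in a KPS-HET library and none in KPS. Of 18 hepatocyte markers 11 were tested and 2 were called lower in KPS (Alb and Apob), and their summed level was 63.6 to 904.5 CPM in KP (4 to 8 markers at 0), 96.9 to 252.3 in KPS-HET (6 at 0) and 12.4 to 34.4 in KPS (4 to 10 at 0). Of 12 endothelial markers 11 were positive in KPS against KP and 1 was called higher (Vwf), with a median of 1.76 and a summed level of 67.3 to 107 CPM in KP and 44.8 to 164 in KPS. Of 10 tested fibroblast and smooth muscle markers 1 was called higher (Col1a1) and 1 lower (Acta2), with a median of 1.63 and a summed level of 64.7 to 228 CPM in KP and 10.8 to 77.6 in KPS. Red blood cell markers summed to 1.81 to 11.8 CPM in KP and 51.8 to 73.8 in KPS, and Hba-a1 was called higher. The part of these cell types in the receptor results was not tested. The macrophage and hepatocyte terms given below cannot separate cell type from genotype, because marker levels differed between KP and KPS. The hepatocyte sums of KP and KPS did not overlap. The macrophage sums did, but their markers had the median of 3.12 given above. With these terms 357 and 205 genes were called in KPS against KP, beside 1134 without. A call lost with a term is therefore no evidence about cell type.

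The promoters of the called receptor and of its called transporter target, and that of the receptor next closest to the threshold, are printed because the results turn on these genes. Each run is the 250 bases before the gene's start, 5′ to 3′ on the gene's own strand, from RefSeq on GRCm38.p6, a later build than the mm9 of the counts. They were chosen after the expression values were seen. Nr1h3 lay at chr2:91195117-91195366 on the minus strand (the more upstream of 2 starts in the table), Nr4a2 at chr2:57124004-57124253 on the minus strand and Abca1 at chr4:53159896-53160145 on the minus strand.
Nr1h3: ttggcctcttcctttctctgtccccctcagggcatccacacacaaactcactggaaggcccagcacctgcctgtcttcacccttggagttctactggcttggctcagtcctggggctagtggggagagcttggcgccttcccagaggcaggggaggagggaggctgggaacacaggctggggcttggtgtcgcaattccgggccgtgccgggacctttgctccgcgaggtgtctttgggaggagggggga
Nr4a2: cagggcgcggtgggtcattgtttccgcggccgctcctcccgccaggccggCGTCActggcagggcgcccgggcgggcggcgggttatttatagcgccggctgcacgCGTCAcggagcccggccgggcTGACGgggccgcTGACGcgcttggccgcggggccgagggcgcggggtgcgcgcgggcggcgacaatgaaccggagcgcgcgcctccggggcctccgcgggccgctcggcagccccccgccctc
Abca1: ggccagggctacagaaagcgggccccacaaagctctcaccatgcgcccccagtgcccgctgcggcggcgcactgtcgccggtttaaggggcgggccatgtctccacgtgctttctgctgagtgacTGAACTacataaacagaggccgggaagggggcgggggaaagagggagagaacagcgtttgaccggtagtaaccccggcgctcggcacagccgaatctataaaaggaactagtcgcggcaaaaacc

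Capitals in the Nr1h3 and Abca1 runs mark receptor half-sites on either strand, in 4 forms. These were the canonical AGGTCA, the variant with a changed first base that reads GGGTCA, the variant with a changed inner base that reads AGTTCA, and the variant with both changes that reads GGTTCA. The Nr1h3 window held none of these 4 forms, and the Abca1 window held AGTTCA once. Only these exact forms were searched, so a receptor site with other letters would stay in lower case. The capitals therefore do not show which stretch a receptor binds, or that a window holds no other site. Capitals in the Nr4a2 run mark TGACG on either strand, the core of the cyclic AMP response element, which occurred 4 times. Of all 27025 promoters in the RefSeq table, 38.4% held at least 1 of these half-sites, as did 42.5% of the 40 nuclear receptor promoters that matched (of 43). TGACG occurred in 17.8% of all promoters and in 25% of the receptor promoters. TGACG was picked out after the Nr4a2 window had been read, so its presence is a description. The Nr4a2 window also held the half-site GGGTCA once and the half-site GGTTCA once, which are not in capitals there.

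Receptor mRNA spanned a wide range of levels. Of 43 receptors, 12 had a mean of at least 20 CPM over the 9 libraries, 29 had at least 1 CPM and 14 were below 1 CPM. Counts were present in all 9 libraries for 29 receptors. A filter on low counts left 34 receptors for testing, and Esrrb, Pgr, Nr0b2, Nr2e1, Nr2e3, Nr2f1, Nr5a1, Nr5a2 and Rorb did not pass it. Nr0b2, which encodes the small heterodimer partner, had no count in any library, and the other eight stayed at or below 1.13 CPM in every library. Per kilobase of exon in the GENCODE vM21 annotation, Nr1h2 (LXR beta) had the highest mean level at 43.2 CPM per kb, with libraries from 36.9 to 53.1. Nr2f6 (EAR2, an orphan receptor of the COUP-TF group) followed at 41.9 CPM per kb with libraries from 30.6 to 56.0, so the first pair in the order overlapped. Pparg at 23.7 CPM per kb (10.5 to 35.3), Nr1d2 at 21.5 (16.3 to 31.2), Rxrb at 19.3 (16.2 to 22.0) and Nr1d1 at 15.9 (7.14 to 24.1) came next, and each overlapped its neighbours. Nr3c1, the glucocorticoid receptor, had 13.5 CPM per kb (11.8 to 15.1) and Nr1h3 (LXR alpha) had 8.77 (4.51 to 15.9). Esrra at 7.83 and Nr2c2 at 7.06 CPM per kb completed the first 10. At the other end of the tested receptors stood Nr1i2, the pregnane X receptor, at 0.0866 CPM per kb.

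**Figure D1:**
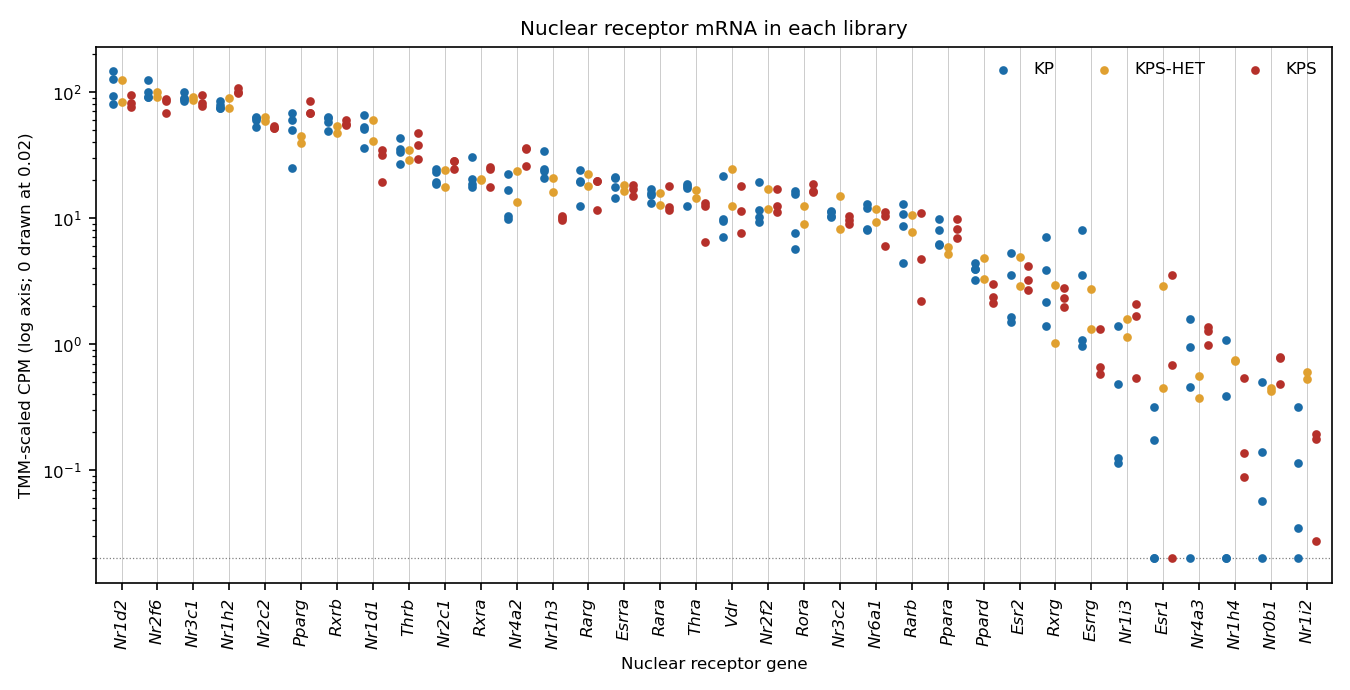
TMM-scaled CPM (log axis) of the 34 tested nuclear receptors in each of the 9 libraries, ordered by mean level, with 1 point per library (KP n = 4, KPS-HET n = 2, KPS n = 3) and libraries at 0 drawn at 0.02. The 3 KPS points of Nr1h3 sit between 9.69 and 10.3 CPM, below the KP range of 20.6 to 34.2.

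In KPS against KP, 1 of the 34 tested receptors was called at an adjusted p under 0.05, Nr1h3, which was lower. That is 2.94% of the tested receptors, against a background of 7.24% of all 15663 tested genes (3.28% lower and 3.96% higher). At an unadjusted p under 0.05 there were 6 receptors (17.6%, background 24.3%), namely Nr1h3, Nr4a2, Nr1h2, Nr1d1, Nr2f6 and Esrrg. The libraries of KP and KPS did not overlap for 7 receptors (20.6%, background 21.8%), of which Nr1h2, Nr2c1 and Nr4a2 were higher in KPS and Nr1h3, Nr1d1, Nr2f6 and Ppard lower. The log2 fold change was positive for 16 receptors and negative for 18 (50.9% of all genes were positive), with a median of -0.06 beside 0.01 over all genes. The shares called, past an unadjusted p of 0.05 and without overlap were each below that of all genes. Of the 24 tested receptors with a mean of at least 5 CPM, 16 had a 95% interval that lay within 1 log2 unit of no change, and the intervals of Rarb, Pparg, Thra, Vdr, Nr1d1, Nr1h3, Nr4a2 and Rora reached beyond it.

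**Figure D2:**
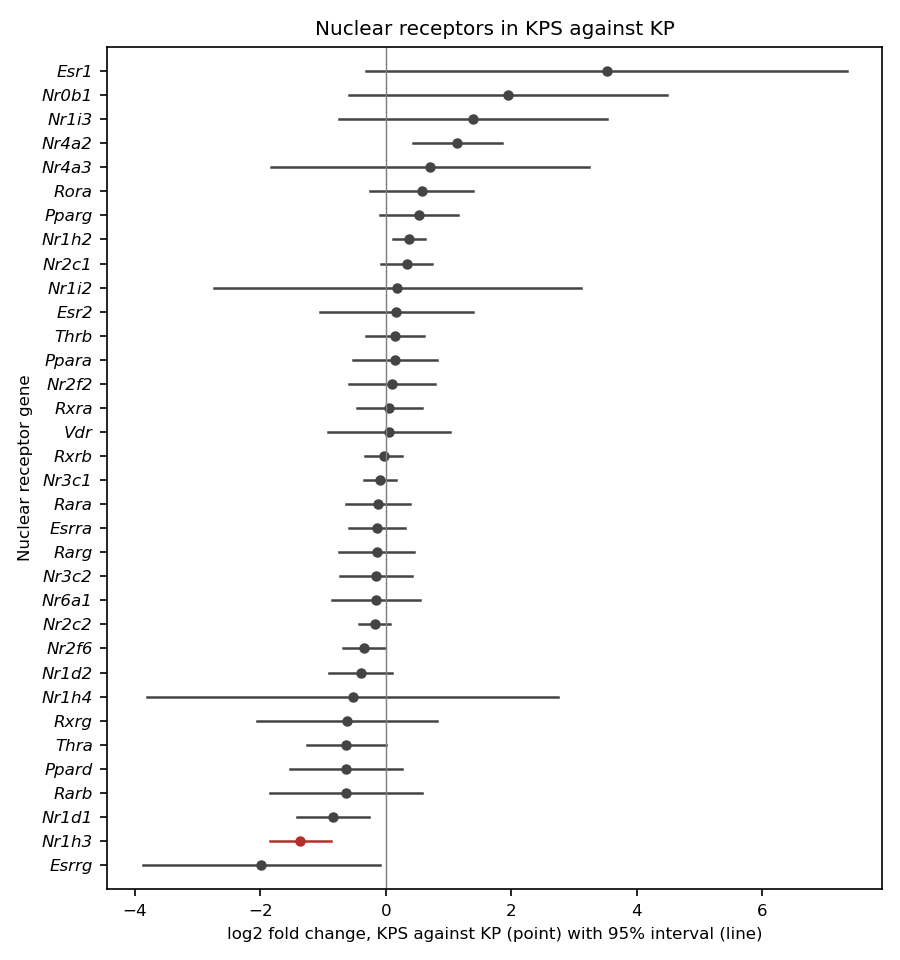
Log2 fold change in KPS against KP of the 34 tested nuclear receptors (points) with 95% intervals (lines), ordered by value, from edgeR over 9 libraries. The called receptor, Nr1h3, is in red at -1.36 (-1.85 to -0.87), and the widest intervals belong to receptors of low level such as Esr1 (-0.31 to 7.35).

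The liver X receptors sense oxysterols and drive cholesterol efflux, and 1 of the 2, Nr1h3, was called. Nr1h3 held 24.5, 23.6, 34.2 and 20.6 CPM in the 4 KP libraries, 20.8 and 16.1 in the 2 KPS-HET libraries and 9.94, 10.3 and 9.69 in the 3 KPS libraries. All KPS libraries lay below all KP and KPS-HET libraries, and 1 of the 2 KPS-HET libraries lay within the KP range. Nr1h3 fell by 1.36 ± 0.22 on the log2 scale in KPS against KP (SE, edgeR, adjusted p = 0.00836). In bulk libraries, fewer cells of a type and less RNA per cell cannot be told apart. The KPS library with the highest Marco and Ctss levels, replicate 1 at 120 and 378 CPM, had an Nr1h3 level between those of the other two KPS libraries. Marco and Ctss are 2 of the 18 macrophage markers, and Nr1h3 in KPS spanned only 9.69 to 10.3 CPM. No conclusion is drawn from that order. The KP library with the highest hepatocyte marker sum, replicate 3 at 904.5 CPM, also had the highest Nr1h3 level, and without it the log2 fold change was -1.22 (adjusted p = 0.0132). The call was lost with a term for the level of the macrophage markers in the model (-1.42, adjusted p = 0.0582) and with such a term for the hepatocyte markers (-1.09, adjusted p = 0.115). The part of either cell type in the Nr1h3 result was not tested.

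Nr1h2, the more widely expressed paralogue of Nr1h3, held 75.0, 74.6, 78.9 and 84.3 CPM in KP, 74.0 and 90.1 in KPS-HET and 107, 97.2 and 99.4 in KPS. The KPS libraries were the highest of the 9, but the log2 fold change of 0.37 ± 0.11 did not pass the test (edgeR adjusted p = 0.0756). It passed with DESeq2 (adjusted p = 0.0319). Per kilobase of exon, the mean of Nr1h2 was 3.26 times that of Nr1h3 in KP, 4.76 times in KPS-HET and 10.8 times in KPS.

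Of 13 tested genes among 14 listed liver X receptor targets, 2 rose, none fell and 11 did not pass the test, and the list's median log2 fold change was 0.04 beside 0.01 over all genes. Abca1, the cholesterol efflux transporter whose promoter is printed above, held 25, 18.1, 21.1 and 29.1 CPM in KP, 30.8 and 27.7 in KPS-HET and 63.8, 40.6 and 70.4 in KPS. It rose by a log2 fold change of 1.32 ± 0.22 (edgeR adjusted p = 0.00919), with no overlap between KPS and the other libraries. With the macrophage term the value was 1.01 (adjusted p = 0.111) and with the hepatocyte term 1.53 (adjusted p = 0.0751). Smpdl3a, a phosphodiesterase, rose from 89.5 ± 6.76 CPM in KP to 137 ± 34.5 in KPS (log2 fold change 0.61 ± 0.16, adjusted p = 0.0446). That call was lost without any 1 of the 9 libraries (adjusted p from 0.0531 to 0.144). It was also lost with the macrophage term (0.37, adjusted p = 0.429) and the hepatocyte term (0.56, adjusted p = 0.287). Apoe, an apolipoprotein, was at 652 ± 296 CPM in KP and 76.5 ± 95.4 in KPS, and Abcg1, another efflux transporter, at 7.48 ± 4.95 and 36.5 ± 29.1. Neither passed the test (log2 fold change -3.09 ± 0.85, adjusted p = 0.0632, and 2.29 ± 0.67, adjusted p = 0.0714). Abca1, Abcg1, Apoe and Nr1h3 are all known to be expressed in macrophages too.

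**Figure D3:**
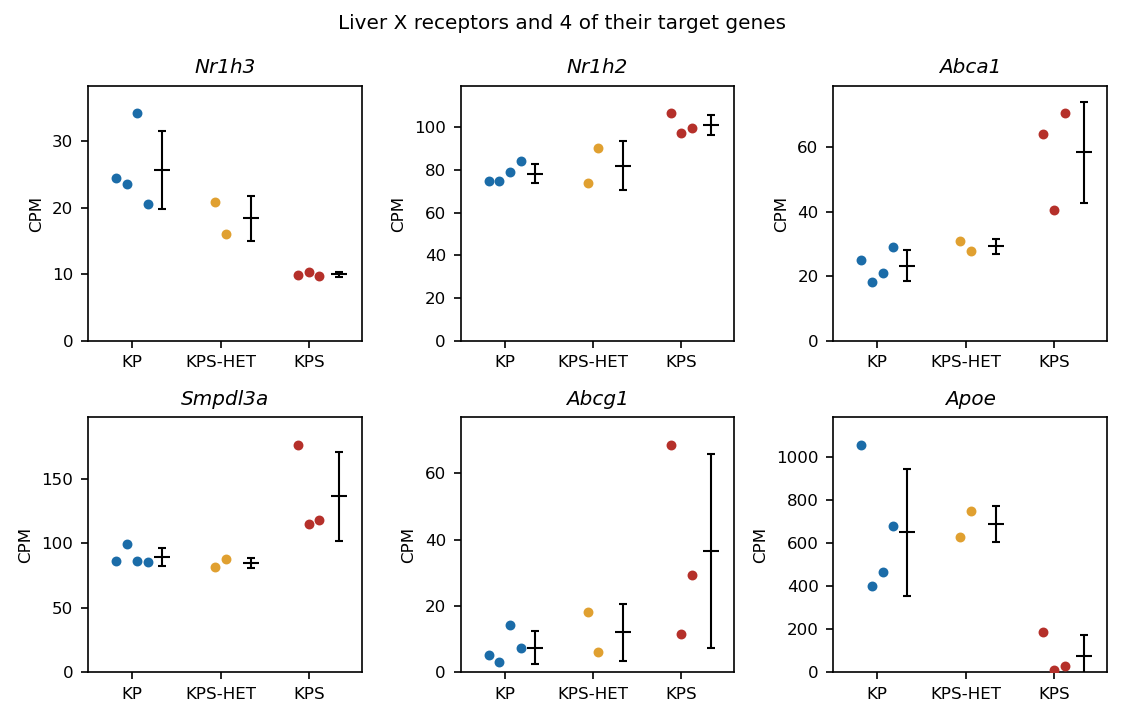
TMM-scaled CPM of Nr1h3, Nr1h2 and 4 liver X receptor target genes in each library (points), with the group mean and SD beside them (KP n = 4, KPS-HET n = 2, KPS n = 3). Nr1h3 is lowest and Nr1h2 and Abca1 are highest in the 3 KPS libraries, and Apoe and Abcg1 spread widely within KPS.

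Over the 9 libraries, the genes whose log2 CPM followed Nr1h3 most closely were Tfcp2l1 (Pearson r = 0.986), Gpc3 (r = 0.984) and Pf4 (r = 0.981). The 9 points share the 3 genotype groups, so these values describe the pattern and carry no test.

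Among the NR4A receptors, which are immediate early genes without a known hormone, Nr4a2 (NURR1) was higher in every KPS library than in any KP library. It held 10.3, 16.6, 22.2 and 9.72 CPM in KP, 13.4 and 23.4 in KPS-HET and 35.8, 35.4 and 25.9 in KPS. The log2 fold change of 1.14 ± 0.32 missed the threshold (edgeR adjusted p = 0.0599). It passed with limma-voom (adjusted p = 0.0285), with DESeq2 (0.0138) and without KP replicate 3 (1.39, adjusted p = 0.0351). Nr4a3 (NOR1) was low, at 0.743 ± 0.671 CPM in KP and 1.2 ± 0.191 in KPS, with an interval from -1.83 to 3.24. Nr4a1 (NUR77), given beside them as the remaining paralogue, fell from 158 ± 27.4 CPM in KP to 98.2 ± 12.3 in KPS (log2 fold change -0.68 ± 0.16, adjusted p = 0.0322). That call was lost without KP replicate 2, 3 or 4 or KPS replicate 1 or 3 (adjusted p from 0.0540 to 0.0968). Of 11 immediate early genes listed as partners of the NR4A group, which dissociation of tissue is also known to induce, 2 fell and none rose. These were Egr1 (-1.01 ± 0.20, adjusted p = 0.0168) and Ier2 (-1.04 ± 0.22, adjusted p = 0.0246). The call of Egr1 was lost without KPS replicate 3 (adjusted p = 0.0553) and that of Ier2 without KPS replicate 1 or 3 (0.0642 to 0.0727). With either marker term Nr4a1, Egr1 and Ier2 were no longer called (adjusted p from 0.120 to 0.213). Crem (0.47) and Atf3 (-0.81) did not pass the test. The list's median was -0.39, on the other side of 0 from Nr4a2.

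The REV-ERBs, Nr1d1 and Nr1d2, are heme-binding repressors of the circadian clock, and the RORs activate the same elements. Nr1d1 held 35.7, 52.6, 65.7 and 50.4 CPM in KP, 40.9 and 59.5 in KPS-HET and 31.7, 19.4 and 34.4 in KPS. All KPS libraries were below all others, but the log2 fold change of -0.84 ± 0.26 did not pass (edgeR adjusted p = 0.0805; DESeq2 0.0262). With the hepatocyte term it was -0.38 (adjusted p = 0.595). Nr1d2 was at 111 ± 30.3 CPM in KP and 84.2 ± 9.65 in KPS, with overlapping libraries (-0.40 ± 0.22, adjusted p = 0.318). Rora was at 11.3 ± 5.49 and 16.9 ± 1.39 CPM, with an interval from -0.25 to 1.39, and Rorb was not tested. Of 14 tested clock genes none was called by edgeR, DESeq2 or limma-voom. At an unadjusted p under 0.05 there were 2 (background 24.3% of all genes), Per1 at 0.66 and Bhlhe41 at 1.68 (edgeR adjusted p = 0.122 and 0.141). Gm129, the table's symbol for Ciart, and Dbp, an output gene of the clock, had log2 fold changes of -0.57 and -0.76 (adjusted p = 0.258 and 0.319). No source used here gives the hour of sampling.

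The PPARs bind fatty acids and control their storage and oxidation. Pparg, the adipogenic member, held 49.6, 25, 59.9 and 68.4 CPM in KP, 39.4 and 44.4 in KPS-HET and 68.1, 67.7 and 83.8 in KPS. The top of the KP range lay just inside the KPS range, and the log2 fold change of 0.53 ± 0.28 did not pass (edgeR adjusted p = 0.282). Ppara was at 7.52 ± 1.76 CPM in KP against 8.30 ± 1.39 in KPS (0.14 ± 0.30, adjusted p = 0.831). Ppard was at 3.85 ± 0.478 and 2.49 ± 0.469 CPM without overlap, but its log2 fold change of -0.63 ± 0.40 was not called (adjusted p = 0.378). Of 23 tested PPAR target genes, 3 rose, 2 fell and 18 did not pass the test, with a median of 0.28. Angptl4, an inhibitor of lipoprotein lipase, rose from 136 ± 41.7 to 395 ± 99.6 CPM (1.54 ± 0.29, adjusted p = 0.0155). Acsl1, which activates long-chain fatty acids, rose by 1.85 ± 0.38 (adjusted p = 0.02225) and Slc25a20, the mitochondrial carnitine carrier, by 0.83 ± 0.19 (adjusted p = 0.0318). Cd36, a fatty acid transporter, fell from 731 ± 117 to 317 ± 79.8 CPM (-1.21 ± 0.20, adjusted p = 0.00836). With the macrophage term the calls of Cd36 (-1.11, adjusted p = 0.0680), Angptl4 (1.54, 0.0981) and Slc25a20 (0.96, 0.103) were lost and that of Acsl1 was kept. With the hepatocyte term the calls of Cd36 (-1.10, adjusted p = 0.115), Slc25a20 (0.92, 0.177) and Acsl1 (2.65, 0.0551) were lost and that of Angptl4 was kept. The call of Acsl1 was lost without KP replicate 1, 2 or 4 or KPS replicate 2 or 3 (adjusted p from 0.0515 to 0.0781). That of Slc25a20 was lost without KP replicate 1, 2 or 4, KPS-HET replicate 1 or KPS replicate 1 or 2 (0.0539 to 0.109).

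The retinoic acid receptors and their retinoid X partners were not called. Rarg, the most abundant retinoic acid receptor, was at 18.8 ± 4.71 CPM in KP, 17.0 ± 4.64 in KPS and 20.02 ± 3.13 in KPS-HET (KPS against KP -0.15 ± 0.27, edgeR adjusted p = 0.799). Rara and Rarb had log2 fold changes of -0.13 ± 0.23 and -0.63 ± 0.54. Rarb, itself a known retinoic acid target, ranged in KPS from 2.18 to 10.9 CPM. Rxrb was at 58.2 ± 6.68 CPM in KP and 56.8 ± 2.93 in KPS, and its interval ran from -0.33 to 0.26. Rxra (0.05 ± 0.23) and the low Rxrg (-0.61 ± 0.64) overlapped between groups. In the retinoid list 12 of 18 genes were tested, 3 rose, 1 fell and 8 did not pass, with a median of 0.54. Rdh10, which oxidises retinol to retinal, held 55.1, 69.0, 131 and 107 CPM in KP, 64.7 and 119 in KPS-HET and 266, 443 and 397 in KPS. All KPS libraries were above all others, and Rdh10 rose by a log2 fold change of 2.03 ± 0.33 (adjusted p = 0.00836). The call was kept with the macrophage term (2.55, adjusted p = 0.0118) and with the hepatocyte term (2.79, adjusted p = 0.0367). Aldh1a1, which makes retinoic acid from retinal and is also one of the 6 club cell markers, rose by 0.78 ± 0.17 (adjusted p = 0.0244), and Tgm2, a transglutaminase, by 0.83 ± 0.21 (adjusted p = 0.0424). Of the 6 club cell markers, 2 had a positive log2 fold change, 2 were called higher and none lower, and the median was -0.90. Their summed level was 4292 to 7232.5 CPM in KP and 4917 to 5981 in KPS. The call of Tgm2 was lost with the macrophage term (1.10, adjusted p = 0.0725) and with the hepatocyte term (1.10, 0.126), and that of Aldh1a1 with the hepatocyte term (0.82, 0.159). The call of Aldh1a1 was lost without KP replicate 1 or 3 or KPS replicate 2 or 3 (adjusted p from 0.0539 to 0.0942). That of Tgm2 was lost without KP replicate 1, 2 or 4, either KPS-HET library or KPS replicate 2 or 3 (0.0615 to 0.154).

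Of the steroid receptors, Nr3c1 (the glucocorticoid receptor) was abundant and even. It held 88.0, 89.3, 84.4 and 99.0 CPM in KP, 86.0 and 90.9 in KPS-HET and 81.4, 95.2 and 77.2 in KPS, and the libraries overlapped. The log2 fold change was -0.09 ± 0.12 (edgeR adjusted p = 0.689) with an interval from -0.35 to 0.16. Nr3c2, the mineralocorticoid receptor, was at 10.8 ± 0.607 CPM in KP against 9.67 ± 0.685 in KPS (-0.16 ± 0.26, adjusted p = 0.777). Of 16 tested genes of corticosteroid handling and response, 5 rose, none fell and 11 did not pass, and the median log2 fold change was 0.92. By unadjusted p under 0.05, 10 were higher and 2 lower (background 24.3% of all genes, either direction). The list was chosen with earlier results of these data known, so this count does not measure enrichment. Anxa1, an annexin known to be induced by glucocorticoids, held 1064, 1417, 1342 and 1405 CPM in KP, 1124 and 2024 in KPS-HET and 4359, 3822 and 4091 in KPS (1.65 ± 0.19, adjusted p = 0.00268). Sgk1, a kinase downstream of both corticosteroid receptors, held 51.7, 43.1, 55.2 and 68.5 CPM in KP, 79.8 and 54.5 in KPS-HET and 256, 125 and 266 in KPS (1.98 ± 0.27, adjusted p = 0.00403). The KPS libraries of both genes lay above all others. Anxa1 and Sgk1 kept their calls in all 16 alternative analyses, with adjusted p up to 0.0370 and 0.0498.

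Fkbp5, a cochaperone of the glucocorticoid receptor and a known target of it, held 10.3, 14.5, 9.70 and 23.2 CPM in KP, 25.3 and 18.3 in KPS-HET and 102, 40.4 and 147 in KPS. It rose by a log2 fold change of 2.73 ± 0.43 (edgeR adjusted p = 0.00836), and the value was 2.14 (adjusted p = 0.0817) with the macrophage term and 2.67 (adjusted p = 0.111) with the hepatocyte term. Scnn1a, the alpha subunit of the epithelial sodium channel, rose by 1.04 ± 0.24 (adjusted p = 0.0323), a call lost without KP replicate 1, 2 or 3 or KPS replicate 1 or 3 (0.0701 to 0.0985). Its value was 0.36 (adjusted p = 0.330) with the macrophage term and 1.08 (adjusted p = 0.213) with the hepatocyte term. Zbtb16, a zinc finger repressor and the only other call of the list, named after its value was seen, rose from 2.5 ± 1.65 to 18.9 ± 12.6 CPM (2.91 ± 0.68, adjusted p = 0.0332). Its call was lost without KP replicate 2, 3 or 4, KPS-HET replicate 1 or KPS replicate 1 or 3 (0.0504 to 0.123), with a log2 fold change of 2.30 without KPS replicate 3. It was also lost with the macrophage term (2.51, adjusted p = 0.231) and the hepatocyte term (2.70, adjusted p = 0.229).

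**Figure D4:**
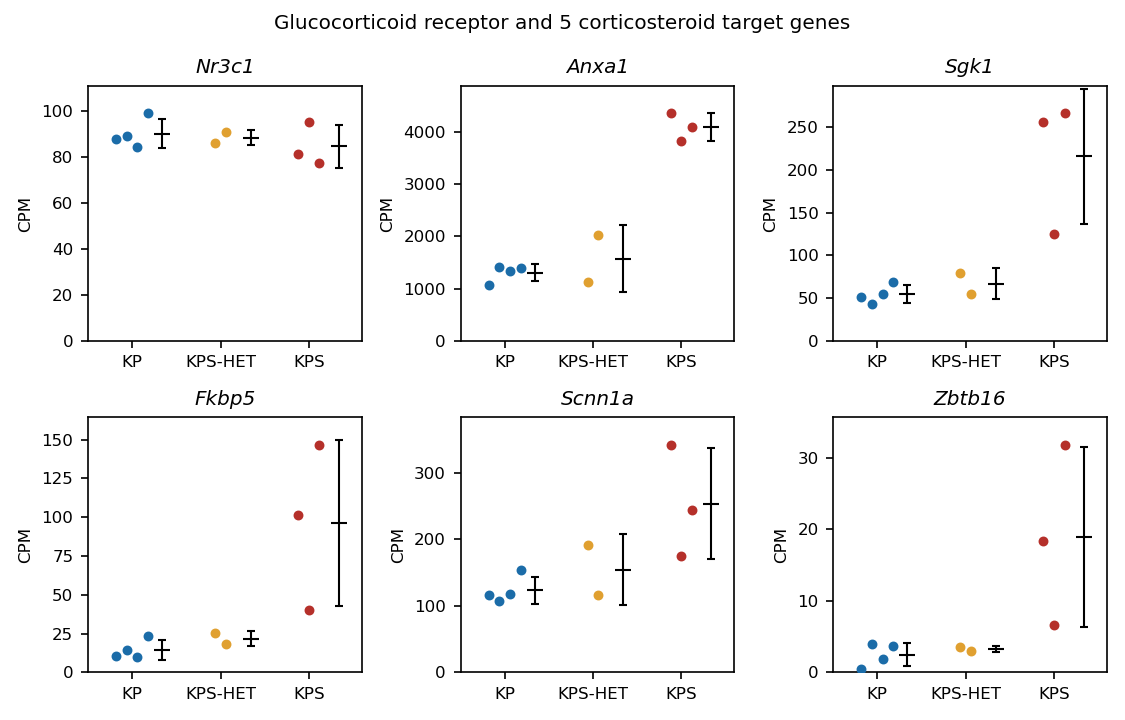
TMM-scaled CPM of the glucocorticoid receptor gene Nr3c1 and the 5 called corticosteroid genes in each library (points), with the group mean and SD beside them (KP n = 4, KPS-HET n = 2, KPS n = 3). Nr3c1 lies between 77.2 and 99.0 CPM in all 9 libraries. The KPS libraries of the 5 genes lie above those of KP, but these genes are shown because they were called higher. Of the 16 tested genes of that list, 11 had a positive log2 fold change in KPS against KP.

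Of the sex steroid receptors in the set, Esr2 had counts in all 9 libraries, while Esr1 and Pgr were at 0 in several. Esr1 (estrogen receptor alpha) held 0.315, 0, 0.172 and 0 CPM in KP, 2.87 and 0.452 in KPS-HET and 0, 0.680 and 3.51 in KPS, and the KPS and KP libraries overlapped. Its log2 fold change of 3.52 ± 1.72 was not called (edgeR adjusted p = 0.244). Esr2 was at 2.99 ± 1.80 CPM in KP and 3.35 ± 0.768 in KPS (0.17 ± 0.55), and Pgr, the progesterone receptor, had counts in 2 of 9 libraries. Of 8 tested genes of sex steroid synthesis and response, 2 rose and 1 fell, with a median of -0.11. Ltf, lactoferrin, an estrogen target in the uterus and also a secretory and neutrophil protein, rose from 241 ± 172 to 6891 ± 5031 CPM (4.84 ± 0.95, adjusted p = 0.0215). Of 7 tested neutrophil markers none was called, 6 were positive in KPS against KP and the median was 1.63, and their summed level was 16.6 to 42.9 CPM in KP and 29.4 to 73.4 in KPS, with none of the 7 at 0 in KPS. Their part in the Ltf result was not tested. Tff1, a trefoil peptide, rose by 2.28 ± 0.58 (adjusted p = 0.0470), and Srd5a1, which makes dihydrotestosterone, fell by 1.97 ± 0.40 on the log2 scale (adjusted p = 0.0201). The call of Ltf was lost without KP replicate 1 or 2 (0.0506 to 0.0535) and its value was 4.22 without KPS replicate 3. That of Srd5a1 was lost without KPS replicate 2 or 3 (0.0598 to 0.0674). That of Tff1 was lost without KP replicate 1, 2 or 3, either KPS-HET library or KPS replicate 2 or 3 (0.0575 to 0.121), and its value without KP replicate 4 was 2.995. With the macrophage term the call of Tff1 was lost (2.26, adjusted p = 0.176), and with the hepatocyte term those of Ltf (6.91, adjusted p = 0.0615), Tff1 (1.86, 0.420) and Srd5a1 (-1.67, 0.201). Hsd17b2, which inactivates estradiol, was at 6.04 ± 4.25 CPM in KP and 0.653 ± 0.637 in KPS and was not called (adjusted p = 0.119).

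The estrogen-related receptors are orphan regulators of mitochondrial genes. Esrra was at 18.4 ± 3.13 CPM in KP, 16.7 ± 1.70 in KPS and 17.2 ± 1.29 in KPS-HET (KPS against KP -0.14 ± 0.20, edgeR adjusted p = 0.740). Esrrg held 1.07, 0.964, 3.56 and 8.05 CPM in KP, 1.33 and 2.71 in KPS-HET and 1.32, 0.583 and 0.658 in KPS. Its KP libraries differed by a factor of 8.35 among themselves, the highest KPS library lay within the KP range, and the log2 fold change of -1.99 ± 0.85 was not called (adjusted p = 0.186). Esrrb had 3 counts in 1 library.

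**Figure D5:**
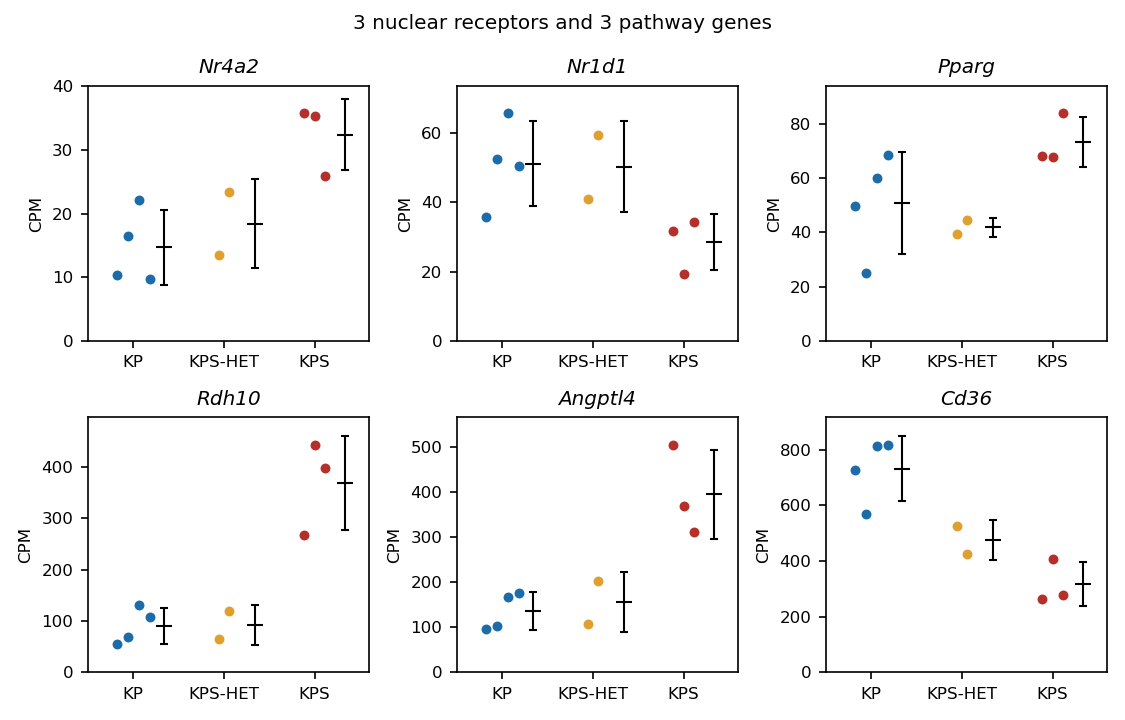
TMM-scaled CPM of the nuclear receptors Nr4a2, Nr1d1 and Pparg and of Rdh10, Angptl4 and Cd36 in each library (points), with the group mean and SD beside them (KP n = 4, KPS-HET n = 2, KPS n = 3). The KPS libraries lie outside the KP range for each gene except Pparg, whose KP libraries reach from 25 to 68.4 CPM.

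The thyroid hormone receptors were not called, and their KP and KPS libraries overlapped. Thrb was at 34.5 ± 6.62 CPM in KP and 38.2 ± 8.87 in KPS (0.15 ± 0.21, edgeR adjusted p = 0.732), and Thra at 16.5 ± 2.77 and 10.7 ± 3.70 (-0.63 ± 0.28, adjusted p = 0.209). The KPS libraries of Thra, at 6.41 to 13.2 CPM, lay below those of KPS-HET at 14.3 and 16.5 CPM. Of 8 tested thyroid hormone genes none was called by edgeR, DESeq2 or limma-voom, and the median was -0.53. At an unadjusted p under 0.05 there were 2 (background 24.3% of all genes). These 2 were the deiodinases Dio3, at 0.422 ± 0.237 CPM in KP and with no counts in KPS, and Dio1, at 3.19 ± 0.957 and 1.35 ± 0.441 CPM (adjusted p = 0.103 and 0.183). The transcription factor Klf9 (0.34) was not called.

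Vdr, the vitamin D receptor, was at 11.9 ± 6.39 CPM in KP, 12.3 ± 5.12 in KPS and 18.5 ± 8.52 in KPS-HET, with overlapping libraries (KPS against KP 0.05 ± 0.44, edgeR adjusted p = 0.968). Its interval ran from -0.93 to 1.02, so a change of up to about 1 log2 unit either way was not excluded. Of 9 tested vitamin D genes 1 rose, 3 fell and 5 did not pass, with a median of -1.25. Cyp24a1, the vitamin D 24-hydroxylase, had no count in any KP or KPS-HET library and 0.853, 1.41 and 5.35 CPM in KPS. Pooled over each group, and taking 3 counts as the floor for KP as a whole (0.0382 CPM), it was at least 59.7-fold higher in KPS (edgeR adjusted p = 0.0304). That bound was at least 27.6-fold without KPS replicate 3, at least 91.0-fold without KPS replicate 1 and at least 38.0-fold without KP replicate 4, and the call was lost without KP replicate 1, 2 or 4 or KPS replicate 2 or 3 (adjusted p from 0.0514 to 0.0981). Atp2b1, a plasma membrane calcium pump, fell from 273 ± 55.8 to 131 ± 19.1 CPM (-1.06 ± 0.18, adjusted p = 0.00964) and S100g, calbindin-D9k, from 137 ± 23.3 to 57.7 ± 15.7 CPM (-1.25 ± 0.22, adjusted p = 0.0103). Gc, the vitamin D binding protein made mainly by the liver, fell from 14.8 ± 10.4 to 0.767 ± 0.648 CPM (-4.21 ± 1.09, adjusted p = 0.0474). With the hepatocyte term Gc was at -1.61 (adjusted p = 0.648), and its call was lost without KP replicate 1, 3 or 4 or any 1 KPS library (0.0605 to 0.129), with a value of -5.25 without KPS replicate 1. With the macrophage term the calls of Cyp24a1 (adjusted p = 0.116), Atp2b1 (0.0509) and Gc (0.287) were lost, and with the hepatocyte term those of Cyp24a1 (0.175), Atp2b1 (0.109) and S100g (0.0519).

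The bile acid and xenobiotic receptors were barely detected. Nr1h4 (FXR) was at 0.364 ± 0.505 CPM in KP and 0.253 ± 0.245 in KPS, Nr1i2 (PXR) at 0.116 ± 0.141 and 0.132 ± 0.0913, and Nr1i3 (CAR) at 0.530 ± 0.604 and 1.43 ± 0.795. None was called, and their 95% intervals were 6.56, 5.85 and 4.26 log2 units wide. Of 11 FXR targets 3 were tested and none was called by edgeR (also none at an unadjusted p under 0.05), DESeq2 or limma-voom. These 3 were the bile acid transporter genes Slc10a2, Slc10a1 and Osta, all at or below 1.65 CPM in both group means. Of 8 tested PXR and CAR targets 1 rose, 1 fell and 6 did not pass. Alas1, the first enzyme of heme synthesis, rose by 0.65 ± 0.16 (adjusted p = 0.0361), a call lost without KP replicate 1, 3 or 4 or any 1 KPS library (0.0712 to 0.111). Gstm1, a glutathione transferase, fell from 1091 ± 366 to 347 ± 95.8 CPM (-1.65 ± 0.28, adjusted p = 0.00906), and its call was lost with the macrophage term (-1.81, adjusted p = 0.0509) and with the hepatocyte term (-1.26, adjusted p = 0.138). The call of Alas1 was lost with both as well (0.48, adjusted p = 0.302, and 0.39, adjusted p = 0.394). Gstm1 belongs to a family of close paralogues between which reads are divided by estimation. The efflux pump Abcb1a (-2.09) and the transferase Gsta1 (2.35) were not called.

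The remaining orphan receptors were also not called. Nr2f6 was at 102 ± 15.5 CPM in KP, 79.9 ± 10.6 in KPS and 95.3 ± 6.32 in KPS-HET without overlap of KP and KPS (-0.35 ± 0.15, edgeR adjusted p = 0.181). Nr2f2 (COUP-TFII), known as a regulator of vessels and mesenchyme, was at 12.6 ± 4.54 and 13.5 ± 3.0 CPM (0.10 ± 0.31), and its paralogue Nr2f1 had 2 counts in all. The testicular receptors Nr2c1 and Nr2c2 had log2 fold changes of 0.33 ± 0.18 and -0.18 ± 0.11 (adjusted p = 0.300 and 0.377), and Nr2c2 was at 59.3 ± 4.44 CPM in KP and 52.3 ± 0.843 in KPS. Nr6a1 (GCNF) was at 10.3 ± 2.55 and 9.20 ± 2.82 CPM. Nr0b1 (DAX1), a receptor without a DNA-binding domain of the usual kind, was at 0.175 ± 0.227 and 0.682 ± 0.170 CPM (1.95 ± 1.14, adjusted p = 0.334). The steroidogenic regulator Nr5a1, its relative Nr5a2, the neural Nr2e1 and the photoreceptor Nr2e3 stayed at or below 0.307 CPM in every library. Outside the 43, Hnf4a, the hepatocyte and gut receptor, had a mean of 94.8 ± 32.3 CPM in KP against 53.7 ± 11.0 in KPS (adjusted p = 0.122), and Hnf4g 0.00875 ± 0.0175 against 0.998 ± 0.984 (adjusted p = 0.0607).

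Nuclear receptors act through coregulators. Of 17 coactivators and 9 corepressors none was called by edgeR, with medians of 0.05 and 0.00. At an unadjusted p under 0.05 there were 4 coactivators and 1 corepressor (background 24.3% of all genes), DESeq2 called 2 and 1, and limma-voom called 1 and 0. Ppargc1b, a coactivator of the estrogen-related receptors, came nearest (1.41 ± 0.684 CPM in KP against 5.15 ± 1.49 in KPS, log2 fold change 1.87, adjusted p = 0.0522). The acetyltransferases Kat2a (-0.68) and Kat2b (-0.66) and the methyltransferase Carm1 (0.59) had adjusted p from 0.0594 to 0.102. Among corepressors Nrip1 had the smallest p (-0.60 ± 0.18, adjusted p = 0.0729), and Hdac3 (0.20), Ncor1 (-0.22) and Tbl1x (0.19) were not called. The libraries of KP and KPS did not overlap for Ppargc1b, Kat2a, Kat2b, Carm1 and Nrip1, as for 21.8% of all tested genes. These coregulators were named for their small p, so the lack of overlap adds nothing to it. Over the 14 lists, 17 genes rose and 11 fell in KPS against KP, and 10 of these 28 kept their call without each library in turn. Of all tested genes, 7.24% were called in that comparison. The lists were chosen with earlier results of these data known, so neither this count nor those of single lists measures enrichment or its absence.

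In KPS-HET against KP no receptor and no gene at all was called by edgeR (background 0%). Smarca4, the gene that defines the groups, was therefore not called either (log2 fold change -0.53 ± 0.17, edgeR adjusted p = 0.974). The lack of a call for a receptor here does not show that its level was unchanged. At an unadjusted p under 0.05 there were 627 genes (4%) and 0 receptors, DESeq2 called 2 genes and no receptor, and limma-voom called neither. The KPS-HET libraries lay outside the KP range for Ppara, Esr1 and Nr1i2 (8.82% of the tested receptors, background 13.4%). The log2 fold change was positive for 15 receptors and negative for 19 (48.9% of all genes were positive). Nr1h3 had a log2 fold change of -0.48 ± 0.25 (adjusted p = 0.974), with an interval from -1.02 to 0.07. None of the 14 lists held a call by edgeR, DESeq2 or limma-voom, and 16 of their genes had an unadjusted p under 0.05.

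In KPS against KPS-HET no receptor was called by edgeR, against a background of 0.932% of genes (0.524% higher and 0.409% lower). Smarca4 was not called in this comparison either (log2 fold change -0.86 ± 0.18, edgeR adjusted p = 0.0551). At an unadjusted p under 0.05 there were 4 receptors (11.8%, background 16.5%), Nr1h3 at -0.89 ± 0.25 (adjusted p = 0.125), Nr1d1 at -0.82 ± 0.30 (0.216), Pparg at 0.81 ± 0.34 (0.277) and Nr1h2 at 0.30 ± 0.14 (0.303). DESeq2 called Nr1h3 (adjusted p = 0.0425) and limma-voom called none. The libraries did not overlap for 18 receptors (52.9%, background 36.4%), 9 higher and 9 lower in KPS. Of the listed genes Anxa1 (1.38 ± 0.24, adjusted p = 0.0357) and Tgm2 (1.47 ± 0.27, adjusted p = 0.0389) rose. The call of Anxa1 in this comparison was lost without any 1 library other than KPS-HET replicate 2 (adjusted p from 0.0543 to 0.211), and that of Tgm2 without any 1 library other than KP replicate 3 or KPS replicate 1 (0.0543 to 0.247). The comparisons share libraries, so the values of a receptor in them are not independent.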

How the data were processed

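RNA from sorted lung cancer cells was sequenced in 9 libraries (4 KP, 2 KPS-HET and 3 KPS, by the genotype label). Per the labels' protocols, low-input polyA libraries were made with a SMART-seq kit. The authors deposited estimated counts per gene, unscaled between libraries and with fractions, made with RSEM 1.3.1, Bowtie 1.2.3 and mm9 per the submitters' processing notes. No source used here gives the annotation or the strand setting, so reads of overlapping or antisense genes, and of close paralogues, may be shared.

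The estimated counts were rounded, which moved a value by at most 0.5. With filterByExpr (minimum count 10, minimum total 15) 15663 genes were kept and 7561 dropped. Genes were tested by edgeR's quasi-likelihood method (version 4.0.16, R 4.3.3) under TMM scaling and robust estimation, with a mean per group fitted to the 9 libraries together, which left 6 residual degrees of freedom. Tests were two-sided, and p-values were adjusted by Benjamini-Hochberg over every tested gene. Called means an adjusted p under 0.05, and "rose" and "fell" are used of called genes. A log2 fold change given with an SE or adjusted p and no other tool comes from that fit. The common biological coefficient of variation was 0.43. Alternatives were DESeq2 size factors, no filter, DESeq2 1.42.0, limma-voom (limma 3.58.1), the 2 compared groups alone, a macrophage or a hepatocyte marker level as a term, and leaving out each library. The code was tested on simulated counts. Every pair of libraries within a group differed beyond counting error in 64.6% to 75.7% of genes, so no libraries were merged, which does not show that they came from different mice. Library numbers follow the order of the samples and give no pairing. Without molecular identifiers, floors cover counting error only.

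The members, the gene lists and the tests were chosen with earlier results of these data known. Full values were given for called receptors, group means for those with an unadjusted p under 0.05 in any comparison and for the most abundant member of each subfamily, and up to 4 genes with the smallest p from each list. Values of some other receptors were added after they were seen. Likeness used log2 of CPM plus 0.5. Some alleles and genes are not reported here, and counts over lists include them.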

Additional observations from a re-analysis of the deposited data

Results flagged for a closer look

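In the 4 KP libraries, 4 of 40 nuclear receptors with counts in that group had 1 library set apart from the other three, all at the edge of detection. Pgr was at 0.459 CPM in KP replicate 3, Nr2e3 at 0.252 CPM in KP replicate 1, Nr5a1 at 0.0574 CPM in KP replicate 3 and Nr5a2 at 0.0630 CPM in KP replicate 1, with 0 in the other KP libraries in each case. The Nr5a1 and Nr5a2 values are single counts. With 3 of 4 libraries at 0, any count in the remaining one sets it apart by construction, so the rate of about 1 in 20 groups that chance gives for normally distributed values does not apply. None of these receptors was tested between groups, and no other receptor was set apart in KP.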

How the results depend on the processing

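Of 16 alternatives, 14 kept the call of Nr1h3 in KPS against KP. Receptors called numbered 4 with DESeq2, 2 with limma-voom, 0 with the macrophage term and 0 with the hepatocyte term, beside 1 as reported, and 1 to 2 when a library was left out (2 without KP replicate 3). In KPS against KPS-HET DESeq2 called 1 receptor, beside 0 as reported. Genes called in KPS against KP were 1134 as reported, 2280 with DESeq2, 357 with the macrophage term, 205 with the hepatocyte term and 505 to 956 without 1 library. In KPS-HET against KP they were 0 as reported and 2 with DESeq2. In KPS against KPS-HET they were 146 as reported, 991 with DESeq2, 15 with only the compared groups, 89 with the macrophage term and 1 to 150 without 1 library, the lowest without KPS-HET replicate 1. The cause of the differing counts was not tested. Of 28 called list genes, 10 kept their call without each library in turn, 8 with the macrophage term, 4 with the hepatocyte term, 28 with DESeq2 and 22 with limma-voom.

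No called value changed sign. Of 1311 alternative values of single genes, 36 changed sign, all of receptors that were not called, and the cause was not tested. With the macrophage term, the log2 fold change in KPS against KP was -0.764 for Vdr and 0.208 for Rarg, and in KPS-HET against KP it was -0.114 for Nr6a1 and 0.008 for Thrb. With the hepatocyte term it was -0.798 for Vdr and 0.055 for Rxrb in KPS against KP, and -0.023 for Nr6a1 and 0.084 for Nr1d1 in KPS-HET against KP. Leaving out 1 library at a time gave KPS against KP ranges on both sides of 0 for Vdr (-0.356 to 0.461), Rarg (-0.325 to 0.031), Thrb (-0.055 to 0.268) and Nr6a1 (-0.360 to 0.050). In KPS against KPS-HET the same held for Esrra (-0.138 to 0.011), Nr1d2 (-0.610 to 0.030) and Nr6a1 (-0.402 to 0.008). In KPS-HET against KP it held for Esrrg (-1.367 to 0.113), Nr1d1 (-0.323 to 0.230), Nr1d2 (-0.428 to 0.184), Nr1h2 (-0.081 to 0.215), Nr2c2 (-0.022 to 0.093), Nr2f6 (-0.164 to 0.024), Nr3c1 (-0.070 to 0.027), Nr4a2 (-0.130 to 0.678), Nr6a1 (-0.128 to 0.197), Rarg (-0.077 to 0.258) and Thrb (-0.272 to 0.010). Where KPS-HET was left with 1 library, that library is assumed to vary like the other groups. No paired analysis was possible because the libraries carry no replicate numbers shared between groups.

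For the 14 receptors below 1 CPM the counts were few, and whether depth limits them was not tested. KPS-HET rests on 2 libraries.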
